A study of Mus musculus with 14 samples.

Results

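A set of 10 genes of glucose breakdown, oxygen sensing and itaconate synthesis was followed in macrophages of the mouse colon. They were HIF1A, SLC2A1, HK1, HK2, HK3, PFKFB3, PKM, LDHA, SLC16A3 and ACOD1. They were chosen by name for what their products do, and all 10 were found among the 24982 genes of the count table. All 10 also passed the filter on low counts that left 13136 genes for testing. In an activated macrophage glucose enters through a carrier, is phosphorylated by a hexokinase and is carried through glycolysis to pyruvate, which lactate dehydrogenase turns into lactate for export. Hypoxia-inducible factor 1, whose oxygen-regulated subunit is encoded by HIF1A, is a transcription factor known for switching on genes of this route in low oxygen and, in macrophages, during inflammatory activation. ACOD1 makes itaconate from an intermediate of the tricarboxylic acid cycle, and itaconate is known to slow succinate dehydrogenase and to release the antioxidant factor NRF2 from its inhibitor KEAP1.

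The cells were lamina propria macrophages of colon and cecum (live CD45+ cells positive for CD64, CD11b and MHCII and negative for Ly6G, Ly6C and CD103), sorted from C57BL/6 mice at the age of 5 weeks, and every mouse carried Cdcs1, a locus that raises susceptibility to colitis. The genotypes were WT (labelled Cdcs1), IL10RAKO (Cdcs1, Il10ra -/-), DKO (Cdcs1, Il10ra -/-, Ccr2 -/-) and CCR2KO (Cdcs1, Ccr2 -/-). Il10ra encodes the ligand-binding chain of the interleukin-10 receptor and Ccr2 the receptor that draws monocytes into tissue, and both deletions were present in the whole animal and so in the cells around the sorted ones. The methods describe controls as cohoused littermates and the mice as of both sexes, and the labels give neither sex nor litter for a library, nor whether WT mice were heterozygous for the deletions. The comparisons ask how macrophages without the receptor differ from WT macrophages, and whether the added loss of Ccr2 changes that. The paper reports robust colitis in IL10RAKO mice of about this age, milder colitis in DKO mice and no histologic colitis in WT mice. Genotype thus goes with inflammation of the colon, and effects of the deletions and of that inflammation cannot be told apart here.

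WT, IL10RAKO and DKO had 4 libraries each in the tests, with 13085287 to 21216468 reads counted on genes per library. A further WT library (sample 11, 12153000 reads) and the only CCR2KO library (sample 6, 17112375 reads) entered no test here and are given beside the others. The study's text counts the WT, IL10RAKO and DKO samples as separate mice, and p-values measure the spread between them. The targeted genes followed the labels, with mean IL10RA of 284.5 ± 70.1 CPM (SD, n = 4) in WT, 7.41 ± 2.67 in IL10RAKO and 5.31 ± 2.12 in DKO, and mean CCR2 of 593, 476 and 5.67 CPM in the same order. CPM, the unit of level used here, divides a gene's reads by its library's total after TMM scaling. All 10 macrophage markers examined were present in every genotype, and their summed level in WT was 21700 to 26890 CPM, with 28050 to 39040 CPM for IL10RAKO and 23130 to 31120 CPM for DKO. H2-AB1, an MHC class II chain, made up most of that sum (15870 CPM on average in WT), so the sum says little of the other markers. In IL10RAKO 2 of the 10 markers were higher, H2-AB1 by 0.61 on the log2 scale and FCGR1, which encodes the CD64 of the gate, by 0.83 (adjusted p = 0.0285 and 0.0304), and 0 were lower. In DKO 1 was higher, MERTK by 0.98 (adjusted p = 0.0386), and 2 were lower with no overlap. ADGRE1, which encodes F4/80, fell from 740.1 to 357.6 CPM (log2 fold change -1.05, adjusted p = 0.0238) and CX3CR1, the fractalkine receptor, from 389.5 to 168.9 CPM (-1.21, adjusted p = 0.0162). In IL10RAKO these genes were at -0.56 and -0.74 (adjusted p = 0.221 and 0.1355), and none of the 10 passed between DKO and IL10RAKO. Markers of other cells moved with genotype, although the gate (Ly6G-, Ly6C-, CD45+) should remove neutrophils, monocytes and fibroblasts. The 8 neutrophil genes summed to 76.15 to 126 CPM in WT libraries, to 145 to 333 CPM in those of IL10RAKO and to 209 to 286 CPM in those of DKO, with LY6G, S100A9 and CAMP at 3 reads or fewer in all 4 WT libraries, and 5 of 6 tested were higher in both knockout genotypes. CSF3R supplied most of that sum, with a mean of 87.29 CPM for WT against 197.7 (IL10RAKO) and 181.3 (DKO). LY6G and CAMP averaged under 1 CPM in every genotype and were not tested. S100A8 and S100A9 varied widely among IL10RAKO libraries (12.45 ± 20.3 and 11.3 ± 19.68 CPM, SD, n = 4). Their spread was smaller for DKO (15.12 ± 5.602 and 12.08 ± 4.324). MMP8 rose from a WT mean of 4.145 CPM to 27.33 (IL10RAKO) and 36.52 (DKO). In the order WT, IL10RAKO and DKO, the 6 monocyte genes summed to 142 to 193.5, 474 to 1407 and 700.2 to 890.4 CPM. Of these, 3 of 6 were higher in both knockout genotypes. The 4 dendritic cell genes summed to 215 to 1022, 1413 to 1850 and 1007 to 1765 CPM. Of these, 2 of 4 were higher in IL10RAKO and 1 of 4 in DKO. CCR7 made up most of that sum, with means of 505.7 CPM in WT and 1530 CPM in IL10RAKO. XCR1, the other gene called in IL10RAKO, averaged 11.1 CPM there, and FLT3 and ZBTB46 were not called. The 6 fibroblast genes summed to 294 to 577, 15.0 to 53.65 and 16.1 to 67.0 CPM, and 6 of 6 were lower in both knockout genotypes. The 3 mast cell genes summed to 10.6 to 32.7, 70.3 to 96.7 and 73.7 to 120.1 CPM. KIT made up nearly all of that sum and was the only one called, at 1.93 and 2.2 (adjusted p = 5.34e-04 and 1.70e-04), while CPA3 averaged under 1 CPM in all 3 genotypes and MCPT1 was at 3 reads or fewer in every IL10RAKO and DKO library. Of the 3 endothelial genes, PECAM1 was lower in DKO (-0.80, adjusted p = 0.0358, ranges overlapping), with -0.47 in IL10RAKO (adjusted p = 0.2225). Of the 5 tested T and NK cell genes, NKG7 was higher in DKO (2.01, adjusted p = 0.0350, ranges overlapping), with 1.84 in IL10RAKO (adjusted p = 0.0572). No B and plasma cell or epithelial gene of the lists passed in either genotype. The part of these cells in the results was not tested. In sorted bulk RNA, a different mix of cells and a different amount of RNA per cell cannot be told apart.

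The DNA just before RefSeq starts of these genes is shown before the values, since hypoxia-inducible factors bind a short core, ACGTG or GCGTG. RefSeq windows (build GRCm38.p6, 250 bases before the start) were found for 10 of 10 genes, in 14 windows because HK1, LDHA, PFKFB3 and PKM have a pair of starts each. The windows of SLC16A3, SLC2A1, LDHA and ACOD1 were chosen because these genes carry the carrier, lactate and itaconate results. They are written from far to near the start, with capitals for ACGTG or GCGTG on either strand (read as CACGT or CACGC on the opposite strand) and for GGAANTTCC, a letter pattern of the kind NF-kappaB binds. GENCODE starts some transcripts earlier than RefSeq, and the windows of SLC16A3 and LDHA lie wholly within its spans of these genes. The last 14 bases shown for SLC16A3 and the last 30 for SLC2A1 and ACOD1 lie in an annotated 5′ untranslated exon, and the latter pair of windows is cut there.
SLC16A3, chr11:120948817-120949066, plus strand: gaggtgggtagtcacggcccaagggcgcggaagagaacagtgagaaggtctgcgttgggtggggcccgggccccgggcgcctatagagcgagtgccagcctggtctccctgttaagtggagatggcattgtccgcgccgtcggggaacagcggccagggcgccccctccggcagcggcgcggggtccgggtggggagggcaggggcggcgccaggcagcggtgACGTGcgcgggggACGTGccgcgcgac
SLC2A1, chr4:119108495-119108740, plus strand: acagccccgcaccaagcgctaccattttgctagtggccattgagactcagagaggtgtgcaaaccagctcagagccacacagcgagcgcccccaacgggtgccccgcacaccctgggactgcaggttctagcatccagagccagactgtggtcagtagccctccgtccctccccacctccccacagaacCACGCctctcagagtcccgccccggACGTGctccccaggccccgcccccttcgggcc
LDHA, chr7:46845554-46845803, plus strand: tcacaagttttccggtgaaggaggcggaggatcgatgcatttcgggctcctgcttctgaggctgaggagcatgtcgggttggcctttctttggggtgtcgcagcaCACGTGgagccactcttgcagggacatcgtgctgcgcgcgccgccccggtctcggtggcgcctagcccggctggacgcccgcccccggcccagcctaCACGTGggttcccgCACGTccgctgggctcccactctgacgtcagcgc
ACOD1, chr14:103046762-103047006, plus strand: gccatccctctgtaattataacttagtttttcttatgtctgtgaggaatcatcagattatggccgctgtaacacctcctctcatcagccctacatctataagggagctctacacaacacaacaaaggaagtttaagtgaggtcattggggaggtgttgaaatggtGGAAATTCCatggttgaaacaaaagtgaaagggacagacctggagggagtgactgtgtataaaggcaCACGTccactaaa

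All 10 genes had ACGTG or GCGTG in at least 1 window, and 12 of their 14 windows did (85.7%), against 12679 of 32851 windows of all genes (38.6%). ACGTG alone was in 10 of the 14 windows (71.4%) and in 16.6% of all windows, while GCGTG was in 28.6% and 28.2%. Counted from the RefSeq start, SLC16A3 held ACGTG at positions -27 and -14, and SLC2A1 held it at -36 beside GCGTG at -61. The SLC16A3 match at -14 lies within the annotated exon bases named above, and the SLC2A1 match at -36 lies partly within them. The ACOD1 match to ACGTG, at -18, lies within them too. The window of LDHA shown counted 5 matches, of which 4 came from 2 copies of CACGTG, the E-box of other factors, which reads as ACGTG on both strands. ACOD1 was the only member with GGAANTTCC, at position -85, a pattern present in 0.813% of all windows. PFKFB3, whose level did not pass a test against WT, had ACGTG in both of its windows. Either core was in 66.7% of the windows of the other glycolytic enzymes, 66.7% of those of other HIF targets and 73.9% of those of tricarboxylic acid cycle genes. In the same order, ACGTG alone was in 25.9%, 50.0% and 39.1% of the windows and GCGTG in 51.9%, 50.0% and 60.9%. A match describes the letters only, and binding was not measured.

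HIF1A (chr12:73901375-73947530, GRCm38) was measured at 232, 215, 178 and 147 CPM in WT samples 4, 5, 10 and 13. IL10RAKO samples 1, 2, 7 and 8 had 840.1, 842, 564 and 930.2 CPM, and DKO samples 3, 9, 12 and 14 had 708, 859, 840.5 and 875 CPM. Every library without the interleukin-10 receptor lay above every WT library, and sample 7 was the lowest of them. The log2 fold change was 2.04 (SE 0.191, adjusted p = 6.68e-06) in IL10RAKO and 2.09 (SE 0.191, adjusted p = 4.86e-06) in DKO, in edgeR's quasi-likelihood test adjusted over all 13136 genes, as for every fold change below. The HIF-1 alpha protein, whose level is set by oxygen-dependent degradation, was not measured.

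SLC2A1 (chr4:119108711-119137983), the glucose carrier GLUT1, had 154, 151, 100.02 and 71.2 CPM in WT samples 4, 5, 10 and 13. It had 725, 1011, 536 and 1245 CPM in IL10RAKO samples 1, 2, 7 and 8, and 711, 962, 857 and 825 CPM in DKO samples 3, 9, 12 and 14. The groups did not overlap with WT, and the spread was wider in IL10RAKO than in DKO, with a coefficient of variation of 35.5% against 12.3%. SLC2A1 rose by 2.88 on the log2 scale in IL10RAKO (SE 0.291, adjusted p = 1.32e-05) and by 2.82 in DKO (SE 0.290, adjusted p = 1.59e-05), a fold of 7.38 and 7.04. SLC2A3, another carrier of high affinity, did not pass in either comparison, with a WT mean of 20.3 ± 16.35 CPM, an IL10RAKO mean of 14.6 ± 3.20 and a DKO mean of 12.1 ± 3.04 (SD, n = 4). Per exon length, SLC2A1 made up 63.5% of the signal of the 5 SLC2A genes compared in WT, 85.1% in IL10RAKO and 84.9% in DKO.

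Hexokinases trap glucose in the cell by adding a phosphate. HK1 is found in most tissues, HK2 is known to be induced by growth and inflammatory signals, and HK3 is typical of myeloid cells. HK3 (chr13:55005985-55021385) had 68.0, 75.3, 88.0 and 94.8 CPM in WT samples 4, 5, 10 and 13, 279, 272, 213.5 and 314 CPM in IL10RAKO samples 1, 2, 7 and 8, and 266.5, 322.5, 332 and 383.5 CPM in DKO samples 3, 9, 12 and 14. All 8 knockout libraries lay above all WT libraries, and the log2 fold change was 1.73 in IL10RAKO (SE 0.172, adjusted p = 1.15e-05) and 2.00 in DKO (SE 0.173, adjusted p = 3.12e-06). HK2 (chr6:82725025-82774454) had 44.7, 66.4, 57.2 and 87.4 CPM in WT, 105, 213, 158 and 142 CPM in IL10RAKO and 93.2, 174, 172 and 150.3 CPM in DKO, in the same order of samples. DKO sample 3 stood just above WT sample 13, and the groups did not overlap, and HK2 rose by 1.28 (SE 0.260, adjusted p = 0.00393) and 1.21 (SE 0.260, adjusted p = 0.00509) on the log2 scale.

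HK1 (chr10:62268855-62379908) gave the least certain call of the hexokinases. Its level was 123, 80.1, 85.5 and 47.2 CPM in WT samples 4, 5, 10 and 13, 135.5, 138, 113 and 136 CPM in IL10RAKO and 121, 159, 153 and 136 CPM in DKO. WT sample 4 lay inside the range of both knockout groups. The log2 fold change of 0.76 in DKO passed the threshold (SE 0.226, adjusted p = 0.0314) and that of 0.63 in IL10RAKO did not (SE 0.226, adjusted p = 0.0741), but the direct difference between these groups was 0.12 (95% interval -0.36 to 0.60), so HK1 was not shown to change in DKO alone. The DKO call was lost when any of WT samples 5, 10 and 13 or DKO samples 9, 12 and 14 was left out (adjusted p of 0.0550 to 0.0881), and the IL10RAKO difference passed without WT sample 4 (0.88, adjusted p = 0.00871). Per exon length, HK3 supplied 51.7 ± 4.79% of the hexokinase signal in WT (SD, n = 4), 63.9 ± 5.61% in IL10RAKO and 68.3 ± 3.53% in DKO, with no library of the knockouts within the WT range of 45.7 to 56.1%.

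PFKFB3 (chr2:11471433-11554077) makes the sugar phosphate that stimulates phosphofructokinase, the committed step of glycolysis. Its level was 88.85, 122, 126 and 125 CPM in WT samples 4, 5, 10 and 13, 99.8, 192, 138 and 139 CPM in IL10RAKO samples 1, 2, 7 and 8, and 97.3, 187, 198 and 161.5 CPM in DKO samples 3, 9, 12 and 14. The 3 groups overlapped, and neither comparison with WT passed (log2 fold change 0.30, 95% interval -0.20 to 0.80, adjusted p = 0.433 in IL10RAKO, and 0.48, interval -0.02 to 0.98, adjusted p = 0.182 in DKO). Without DKO sample 3 the second value became 0.67 (adjusted p = 0.0477). The related enzyme PFKFB4 was lower in DKO than in WT by 0.68 on the log2 scale (-0.68, adjusted p = 0.0161), with 47.5 ± 7.87 against 76.1 ± 9.84 CPM (SD, n = 4), and was at 71.6 ± 13.0 CPM in IL10RAKO. That call was lost without DKO sample 3 or 9 (adjusted p of 0.0514 to 0.0541). The direct difference, DKO minus IL10RAKO, was -0.59 (95% interval -0.98 to -0.21), with an adjusted p of 1.00, so PFKFB4 was not shown to differ between these genotypes.

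PKM and LDHA act at the end of the pathway and had the highest levels per exon length of the 10 genes in WT. PKM (chr9:59656368-59679375), which forms pyruvate, had 975, 632, 625 and 529.7 CPM in WT samples 4, 5, 10 and 13, 2716, 2189, 1546 and 2745 CPM in IL10RAKO, and 3019, 2957, 2716 and 2715 CPM in DKO. No knockout library came near the WT range, and the DKO libraries were within 1.11-fold of each other. The log2 fold change was 1.74 in IL10RAKO (SE 0.217, adjusted p = 9.15e-05) and 2.05 in DKO (SE 0.219, adjusted p = 2.22e-05). PKM lies on chromosome 9, as do both deleted genes. LDHA (chr7:46841475-46855627), which turns pyruvate into lactate, had 628, 479.6, 580.2 and 470.3 CPM in WT, 1377, 1205, 770.4 and 1601 CPM in IL10RAKO and 1466, 1193, 1196 and 1242 CPM in DKO. It rose by 1.20 (SE 0.202, adjusted p = 0.00101) and 1.24 (SE 0.203, adjusted p = 6.80e-04) on the log2 scale, with sample 7 the lowest knockout library again. LDHB, the other common subunit, rose as well, by 1.49 and 1.38 (adjusted p = 3.04e-04 and 4.87e-04), and LDHA kept 95.2% of the combined signal per length in WT, 94.0% in IL10RAKO and 94.7% in DKO. Both PKM and LDHA are known to have processed copies elsewhere in the genome, and how reads that align to several places were counted is not given in the sources used here.

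SLC16A3 (chr11:120948480-120960868) encodes the monocarboxylate carrier MCT4, which exports lactate from cells that make much of it. It was measured at 36.4, 25.8, 19.9 and 41.35 CPM in WT samples 4, 5, 10 and 13, at 367, 556, 218 and 383 CPM in IL10RAKO samples 1, 2, 7 and 8, and at 357, 420.0, 537 and 503 CPM in DKO samples 3, 9, 12 and 14. The lowest knockout library, sample 7, lay far above the highest WT library, sample 13. SLC16A3 rose by 3.63 on the log2 scale in IL10RAKO (SE 0.302, adjusted p = 2.78e-06) and by 3.88 in DKO (SE 0.306, adjusted p = 1.79e-06). SLC16A1, the carrier MCT1 that can also bring lactate in, had 42.8 ± 15.2, 43.8 ± 10.1 and 51.6 ± 10.55 CPM (SD, n = 4) and did not pass. SLC16A3 accounted for 20.0% of the signal per length of the 4 monocarboxylate carriers in WT, 75.03% in IL10RAKO and 78.8% in DKO, and SLC16A6 was the leading one in WT with 39.4%.

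ACOD1 (chr14:103046977-103056573) had the largest fold change of the 10 genes. WT samples 4, 5, 10 and 13 had 2.58, 5.45, 8.49 and 1.73 CPM, from 54, 93, 205 and 26 reads. IL10RAKO samples 1, 2, 7 and 8 had 289, 1036, 653 and 880.1 CPM, and DKO samples 3, 9, 12 and 14 had 518, 982, 487 and 479 CPM. Even the lowest knockout library, IL10RAKO sample 1, held 4152 reads of the gene. The fitted log2 fold change was 7.27 in IL10RAKO (SE 0.575, 95% interval 6.04 to 8.50, adjusted p = 2.29e-06) and 7.06 in DKO (SE 0.570, interval 5.84 to 8.28, adjusted p = 1.79e-06), which put ACOD1 at place 11 and place 24 of 13136 genes ordered by fold change. WT libraries differed 4.90-fold among themselves and IL10RAKO libraries 3.59-fold, the widest spread of any member in these groups. ACOD1 took 0.107 to 0.455% of the reads of the 10 genes in the WT libraries, 4.17 to 13.5% in IL10RAKO and 6.41 to 11.95% in DKO.

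**Figure D1:**
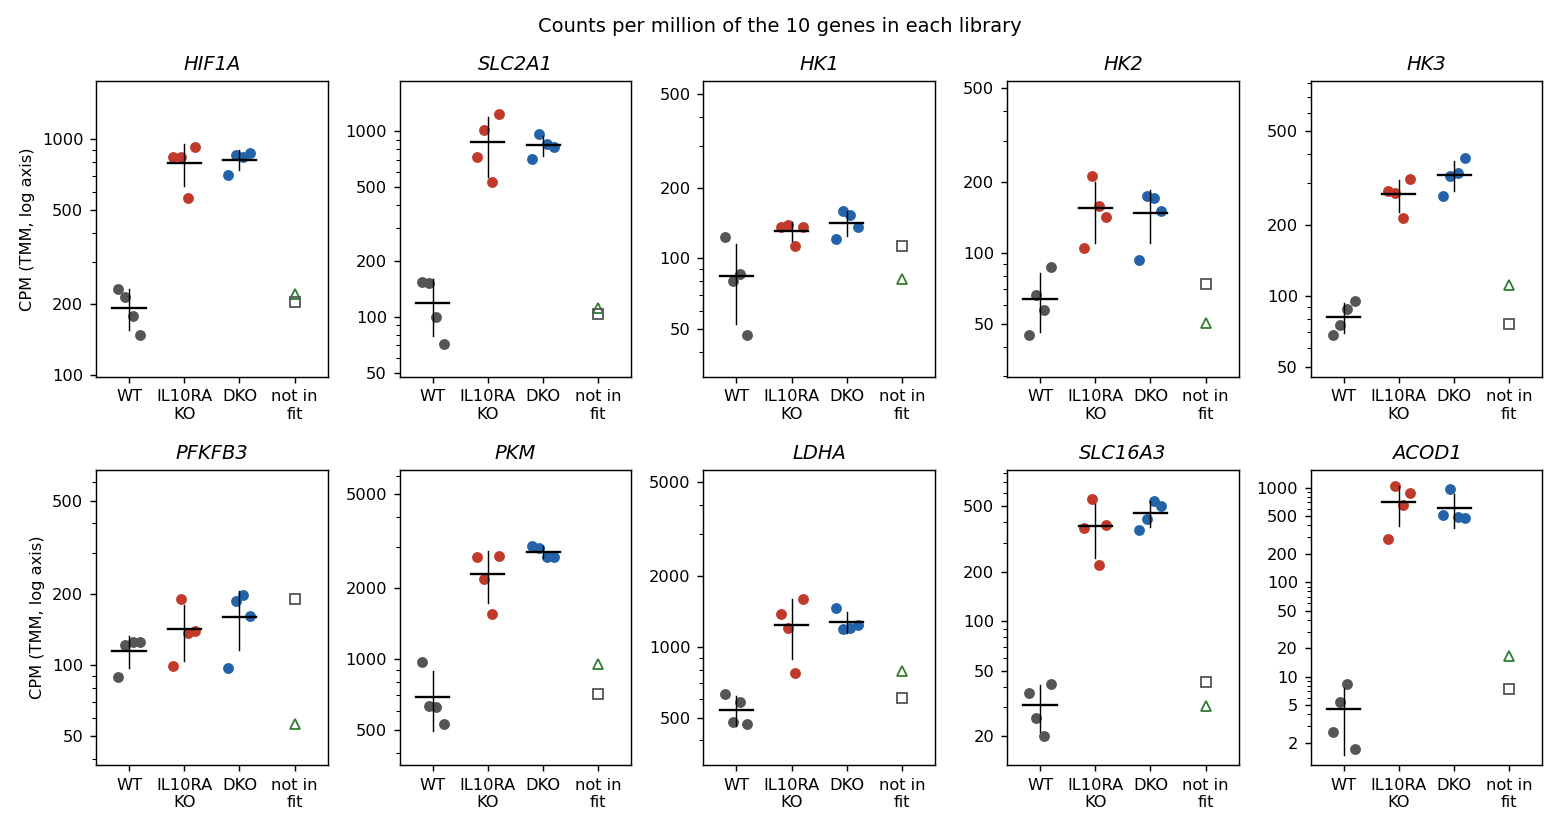
Level of each gene (CPM after TMM scaling, log axis, 1 panel per gene) in WT, IL10RAKO and DKO libraries, with circles for libraries, a horizontal bar for the mean, a vertical line for 1 SD (n = 4) and, at the last position, WT sample 11 (open square) and CCR2KO sample 6 (open triangle), which were in no test. Knockout libraries lie above all WT libraries in 8 panels, and the groups overlap for HK1 and PFKFB3.

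Of the 10 genes, 8 were higher and 0 lower in IL10RAKO than in WT, where 8.7% of all genes tested were higher and 7.1% lower. In DKO 9 were higher and 0 lower, with 9.23% of all genes higher and 9.22% lower. In each comparison the ranges of 8 of the 10 did not overlap with WT (9.45% and 11.2% of all genes were higher without overlap). The median log2 fold change of the 10 was 1.73 and 2.02, and that of all genes was -0.07 and -0.06. Both comparisons use the same WT libraries and are therefore not independent. With library totals in place of TMM, the median over all genes moved to -0.385 and -0.317, and the genes called higher and lower went from 1143 and 933 to 651 and 2084 in IL10RAKO and from 1213 and 1211 to 748 and 2140 in DKO. Under that scaling 8 of the 10 genes were still higher in each comparison, with HK1 no longer among them in DKO.

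DKO and IL10RAKO were then compared directly. None of the 10 genes passed (0.0457% of all genes did, 6 of them), none had an unadjusted p under 0.05 (2.95% of all genes did), and DESeq2 and the edgeR exact test called 0 of them as well. The ranges of the groups overlapped for all 10, and 2.41% of all genes had ranges that did not. The log2 differences, DKO minus IL10RAKO, ran from -0.21 for ACOD1 (95% interval -1.14 to 0.71) to 0.31 for PKM (-0.14 to 0.76). For HIF1A the difference was 0.05 (-0.35 to 0.44), for SLC2A1 -0.07 (-0.65 to 0.51), for LDHA 0.04 (-0.39 to 0.47), for HK3 0.27 (-0.08 to 0.63) and for SLC16A3 0.25 (-0.33 to 0.83). No difference was detectable with 4 libraries per group, and the width of the intervals means that the genotypes were not shown to be alike either.

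**Figure D2:**
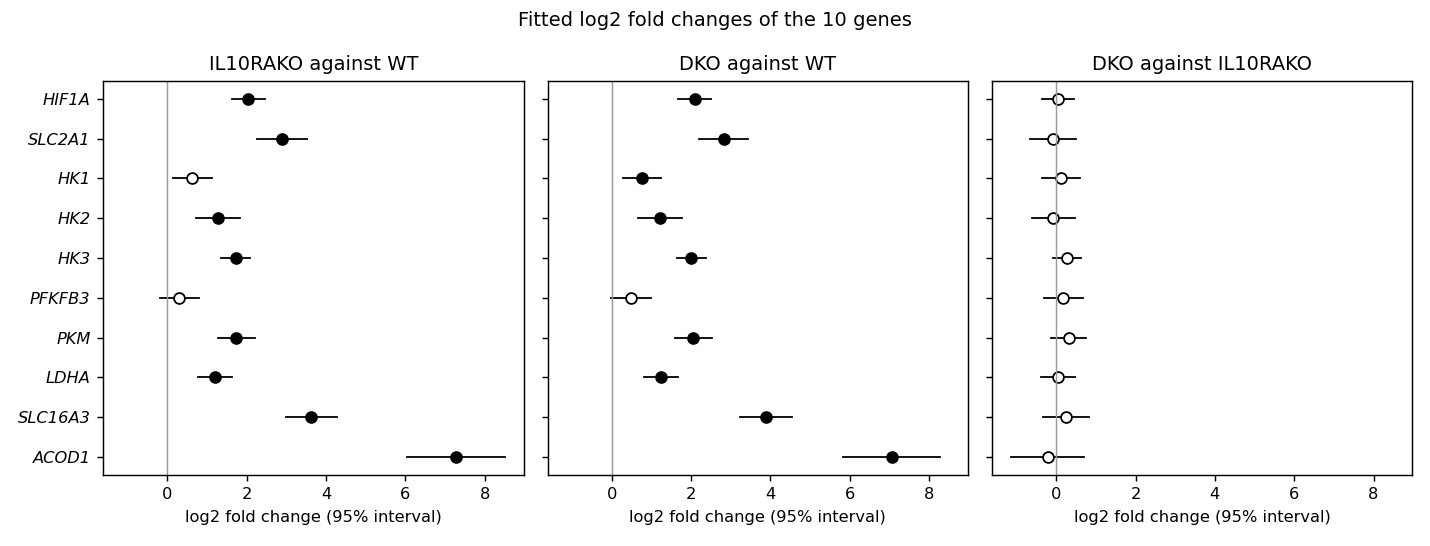
Fitted log2 fold change (horizontal axis) of each of the 10 genes in IL10RAKO against WT, DKO against WT and DKO against IL10RAKO, with 95% intervals as lines. Filled circles passed an adjusted p of 0.05 and open circles did not, and against WT the values run from 0.30 (PFKFB3) to 7.27 (ACOD1), and between the knockout genotypes every interval spans 0.

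The order of the genes by level per exon length changed between WT and the knockout genotypes. LDHA (163 CPM per kb) and PKM (138) led in WT with overlapping ranges, followed by SLC2A1 (33.98) and HIF1A (32.7), also overlapping, then HK3 (22.1), PFKFB3 (15.3), HK2 (10.7), HK1 (9.85), SLC16A3 (5.80) and ACOD1 (1.74), which was below every other member without overlap. In IL10RAKO the order was PKM (459.7), LDHA (374), ACOD1 (272) and SLC2A1 (251), each overlapping with the next, then HIF1A (135), HK3 (73.2) and SLC16A3 (71.6), with HK2 (25.9), PFKFB3 (18.8) and HK1 (15.3) last. DKO had PKM at 570.2 and LDHA at 385 CPM per kb without overlap, then SLC2A1 (239) and ACOD1 (235) with overlapping ranges. ACOD1 thus stood 10th in WT, 3rd in IL10RAKO and 4th in DKO. Together the 10 genes took 0.186 to 0.256% of the reads of WT libraries, 0.477 to 0.724% of those of IL10RAKO and 0.712 to 0.758% of those of DKO. IL10RAKO sample 7 was the lowest of its group for 7 of the 10 genes, DKO sample 3 for 7 and WT sample 13 for 6.

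To see whether members moved apart from their closest relatives, 7 log2 ratios were compared in the 3 pairs of genotypes with a two-sided exact permutation test, 21 tests in all, and 6 of the ratios are given here. With 4 libraries against 4 the smallest p is 0.0286, and adjusted over the 21 tests it came to 0.075, so none passed 0.05. The ratio of SLC16A3 to SLC16A1 was 3.54 higher in IL10RAKO and 3.61 higher in DKO than in WT, and that of SLC2A1 to SLC2A3 was 3.00 and 3.27 higher. Each of these 4 differences had p = 0.0286 in the exact permutation test, with no overlap between groups. The ratio of SLC2A1 to SLC2A3 rested on leaving out WT sample 11, which had 0 reads of SLC2A3 and a log2 ratio of 11.45, set by the pseudocount and above the knockout maximum of 6.93. With that library among the WT the differences were 1.28 and 1.55 (adjusted exact permutation p = 0.695 and 0.635). HK3 to HK1 was 1.01 higher in IL10RAKO (exact permutation p = 0.0857) and 1.17 higher in DKO (exact permutation p = 0.0286), and PFKFB3 to PFKFB4 was 0.37 (exact permutation p = 0.400) and 1.13 (exact permutation p = 0.0286) higher. LDHA to LDHB differed by -0.32 and -0.13 (exact permutation p = 0.143 and 0.457) and HK2 to HK1 by 0.56 and 0.37 (exact permutation p = 0.371 and 0.571).

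**Figure D3:**
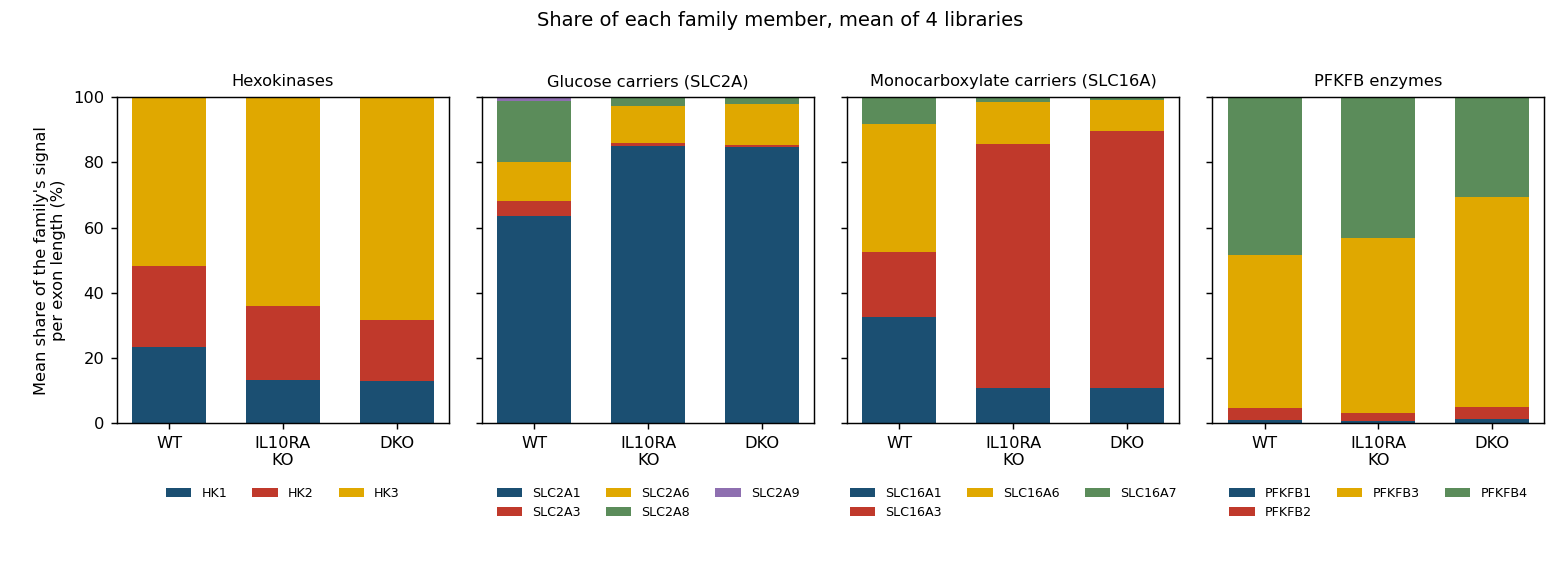
Mean share (%) of each gene in the signal of its family per exon length in WT, IL10RAKO and DKO (stacked bars, mean of 4 libraries, no error shown), for hexokinases, SLC2A glucose carriers, SLC16A monocarboxylate carriers and PFKFB enzymes. The SLC16A3 segment grows from 20.0% in WT to 75.03% and 78.8%, and the SLC2A1 segment from 63.5% to 85.1% and 84.9%.

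The other enzymes of glycolysis were described next, as a list of 19 genes of which 15 passed the filter. In IL10RAKO 10 of the 15 were higher and 0 lower, and in DKO 10 higher and 0 lower. Of all genes, 8.7% were higher in IL10RAKO and 9.23% in DKO. The median log2 fold change of the list was 1.49 in IL10RAKO and 1.64 in DKO. The brain-type aldolase ALDOC rose from 14.7 ± 1.78 CPM in WT to 64.96 ± 16.7 in IL10RAKO and 79.1 ± 6.94 in DKO (SD, n = 4, adjusted p = 4.79e-06 and 1.79e-06). The phosphofructokinase subunit PFKL rose from 93.3 ± 21.3 CPM to 322 ± 76.3 and 382 ± 9.38 (adjusted p = 3.88e-05 and 1.12e-05). PGK1, which yields the first ATP of the pathway, went from 60.5 to 241 CPM in IL10RAKO (adjusted p = 6.93e-05), and ALDOA, the main aldolase of muscle and blood cells, from 375 to 1694 CPM in DKO (adjusted p = 2.84e-05). The count of 10 higher genes was the same under all 22 alternative settings in both comparisons. The enolase ENO1, named after its values were seen, had 0 to 3 reads in each of the 14 libraries, while its near-identical copy ENO1B had 124 to 613, so the enolase step cannot be read from this table.

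Regulators at the branch points changed less evenly. Of 12 tested genes in a list of 14, 3 were higher and 1 lower in IL10RAKO, and 3 higher and 2 lower in DKO (median log2 fold change 0.18 and 0.32). The shares of all genes were 8.7% higher and 7.1% lower in IL10RAKO, and 9.23% and 9.22% in DKO. The pyruvate dehydrogenase kinases PDK3 and PDK1, which hold pyruvate back from the mitochondrial cycle, rose by 1.57 and 1.01 in IL10RAKO (adjusted p = 1.88e-04 and 0.00113) and by 1.79 and 1.07 in DKO (adjusted p = 5.50e-05 and 6.57e-04). MPC1, a subunit of the carrier that takes pyruvate into mitochondria, rose by 0.85 and 1.10 (adjusted p = 0.00306 and 4.07e-04). TXNIP, which promotes removal of glucose carriers from the cell surface, fell from 452 ± 61.8 CPM in WT to 247 ± 94.7 in IL10RAKO and 163 ± 24.2 in DKO (SD, n = 4, log2 fold change -0.87 and -1.47, adjusted p = 0.0246 and 7.77e-04). The first of these calls was lost without IL10RAKO sample 1 or 2 or WT sample 10 (adjusted p of 0.0524 to 0.0753). Among 8 tested carriers in a list of 9, 1 was higher and 1 lower in IL10RAKO and 1 higher and 2 lower in DKO. Beside the shares of all genes given above, counts this small do not set the carriers apart. SLC2A6, a lysosomal hexose carrier, rose by 2.25 and 2.38 (adjusted p = 1.97e-04 and 1.06e-04), and SLC16A7, the monocarboxylate carrier MCT2, was at -0.96 and -1.49 (adjusted p = 0.0157 and 8.01e-04).

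Among the genes that control the HIF proteins, calls went in both directions, those lower near the share of all genes. Of 10 tested genes in a list of 12, 2 were higher and 1 lower in IL10RAKO and 4 higher and 1 lower in DKO. Over all genes tested, 8.7% were higher and 7.1% lower in IL10RAKO, and 9.23% and 9.22% in DKO. The prolyl hydroxylases EGLN3 and EGLN1, which mark HIF proteins for degradation and are themselves known HIF targets, rose by 3.98 and 0.86 in IL10RAKO (adjusted p = 0.00254 and 0.0162) and by 3.88 and 1.08 in DKO (adjusted p = 0.00265 and 0.00350). The IL10RAKO call of EGLN1 was lost without IL10RAKO sample 8 or WT sample 13 (adjusted p of 0.05004 to 0.0555). EGLN3 was low in WT, at 1.68 ± 1.95 CPM, against 26.7 ± 18.1 in IL10RAKO and 24.8 ± 8.08 in DKO (SD, n = 4). EPAS1, which encodes the related factor HIF-2 alpha, averaged 8.51 ± 7.95 CPM for WT, 0.488 ± 0.423 for IL10RAKO and 1.445 ± 0.991 for DKO, and fell in both comparisons (-4.09 and -2.55, adjusted p = 0.00639 and 0.0448). In DKO its range overlapped with WT and the call was lost in 8 of the 12 fits that left out 1 library (adjusted p of 0.0513 to 0.174), those without WT sample 10 or 13, IL10RAKO sample 7 or 8 or any 1 of the 4 DKO samples. EPAS1 is known for its expression in endothelium and other stromal cells, and the fibroblast markers were lower in both knockout genotypes, with the sums given above. The part of those cells in this result was not tested. VHL, the subunit that recognises hydroxylated HIF, rose in DKO (0.80, adjusted p = 0.0431), a call lost in 7 of the 12 such fits (adjusted p of 0.0520 to 0.0894), those without IL10RAKO sample 1, 2 or 8 or without any 1 of the 4 DKO samples.

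Targets of HIF outside glycolysis were higher in 9 of 16 tested genes in IL10RAKO and 9 of 16 in DKO, with 0 lower in each (median log2 fold change 1.17 and 1.12). Of all genes, 8.7% were higher in IL10RAKO and 9.23% in DKO. VEGFA, the growth factor for blood vessels, rose from 65.05 ± 23.1 CPM in WT to 741 ± 239.9 in IL10RAKO and 990 ± 310.4 in DKO (SD, n = 4, adjusted p = 1.03e-05 and 4.05e-06). ERO1L, an oxidase of protein folding, rose by 2.39 and 2.37 (adjusted p = 4.16e-05 and 3.53e-05), and MXI1, an antagonist of MYC, by 1.82 and 1.80 (adjusted p = 3.88e-05 and 3.53e-05). In each comparison 7 of the 16 did not pass. These targets are also known to answer other signals, and oxygen was not measured.

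The pentose phosphate branch, which makes NADPH and ribose, had 3 of 7 genes higher in IL10RAKO and 4 of 7 in DKO, with 0 lower. Of all genes, 8.7% were higher in IL10RAKO and 9.23% in DKO. G6PDX, the first enzyme of the branch, rose by 0.79 and 1.03 (adjusted p = 0.0102 and 0.00157) and TALDO1 by 0.80 and 0.83 (adjusted p = 0.0118 and 0.00842). TKT rose by 0.57 and 0.72 (adjusted p = 0.0359 and 0.00889), with ranges that overlapped in IL10RAKO and not in DKO. PGD rose in DKO by 0.92 (adjusted p = 0.00405) and was at 0.52 in IL10RAKO (adjusted p = 0.0837), and its difference between DKO and IL10RAKO was 0.40 (95% interval -0.01 to 0.81), so the genotypes were not shown to differ. With library totals in place of TMM, 0 of the 7 were called higher in IL10RAKO. TKT lost its call in IL10RAKO in 5 of the fits that left out 1 library, those without IL10RAKO sample 1 or 8 or WT sample 5, 10 or 13 (adjusted p of 0.0736 to 0.119).

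Around ACOD1, the list of the tricarboxylic acid cycle, which also holds CLYBL of itaconate breakdown, had 20 tested genes. Of these, 1 was higher and 1 lower in IL10RAKO, where 8.7% and 7.1% of all genes were, and 2 were higher and 1 lower in DKO, beside 9.23% and 9.22% of all genes. The medians of the log2 fold change were 0.23 and 0.29, and no difference between this list and another was tested. IDH2, the mitochondrial isocitrate dehydrogenase that makes NADPH, fell from 159.6 ± 14.8 CPM in WT to 97.0 ± 17.4 in IL10RAKO and 89.1 ± 15.1 in DKO (SD, n = 4, log2 fold change -0.72 and -0.84, adjusted p = 0.0114 and 0.00394). SDHB, a subunit of the succinate dehydrogenase that itaconate inhibits, rose by 0.77 and 0.72 (adjusted p = 0.0112 and 0.0140). The calls of SDHB were lost with library totals in place of TMM.

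Of 11 tested genes listed around NRF2 and the electrophile response, 5 were higher and 0 lower in IL10RAKO, and 5 higher and 2 lower in DKO. Of all genes, 8.7% were higher and 7.1% lower in IL10RAKO, and 9.23% and 9.22% in DKO. NFKBIZ and HMOX1 are named after their values were seen. NFKBIZ was 1 of the 5 in IL10RAKO (0.89, adjusted p = 0.0131) and did not pass in DKO (0.63, adjusted p = 0.0614). HMOX1 did not pass (-0.27 and -0.93, adjusted p = 0.662 and 0.0890), though its DKO range did not overlap with WT. SLC7A11, the cystine importer, rose from 19.95 ± 8.87 CPM in WT to 241 ± 101 in IL10RAKO and 356 ± 60.6 in DKO (SD, n = 4, adjusted p = 9.33e-06 and 3.08e-06). TXNRD1 rose by 2.21 and 2.25 (adjusted p = 6.05e-06 and 4.55e-06) and SRXN1, which repairs peroxiredoxins, by 2.19 and 2.32 (adjusted p = 1.41e-04 and 7.69e-05). NQO1, a classical target, was at 4.25 ± 3.61 CPM in WT and 0.928 ± 0.243 in DKO (log2 fold change -2.19, adjusted p = 0.0302, ranges overlapping), a call lost in 6 of the 12 fits that left out 1 library, those without WT sample 10 or 13 or any 1 of the 4 DKO samples (adjusted p of 0.0554 to 0.127). In IL10RAKO it was at 1.125 ± 0.417 CPM (-1.92, adjusted p = 0.0575), and DKO and IL10RAKO were not shown to differ (-0.27, 95% interval -1.64 to 1.10). ATF3, a stress factor that itaconate derivatives are known to induce, fell in DKO from 1905 to 898 CPM (-1.09, adjusted p = 0.00116) and was at 1412 CPM in IL10RAKO (-0.43, adjusted p = 0.144). None of the genes in these 8 lists passed between DKO and IL10RAKO.

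**Figure D4:**
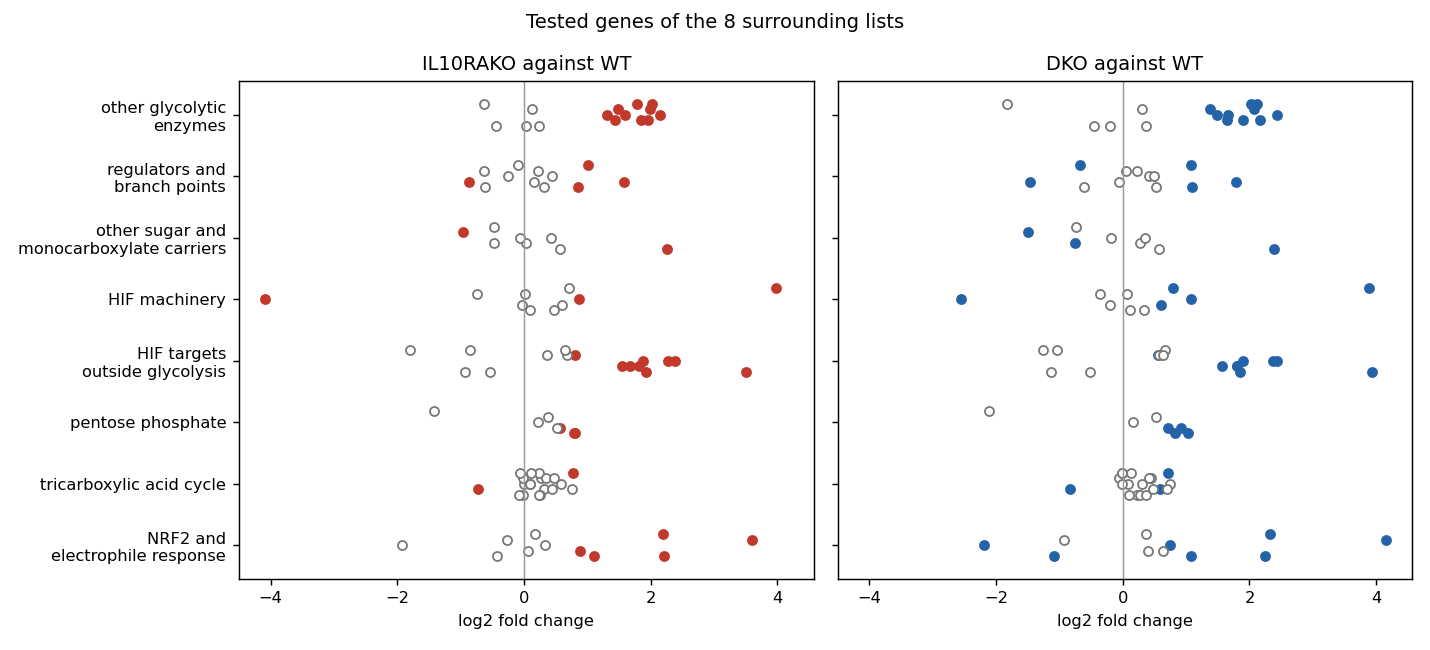
Log2 fold change (horizontal axis) of each tested gene of the 8 lists around the 10 genes, in IL10RAKO against WT and DKO against WT. Circles are genes, filled where they passed an adjusted p of 0.05, and filled circles lie only to the right of 0 for the other glycolytic enzymes, while those of the tricarboxylic acid cycle stay within 1 of 0.

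The 5 genes whose log2 CPM ran most closely with that of ACOD1 over the 12 libraries were IL18BP (Pearson r = 0.984), GM36117 (0.984), CCL5 (0.982), IL1A (0.980) and GM14023 (0.976). IL18BP, the binding protein of interleukin-18, ranged from 4.99 to 11.8 CPM in WT and from 85.2 to 172.5 CPM in the knockout libraries. IL1A ranged from 107 to 178 and from 1717 to 4019 CPM, and CCL5 from 15.65 to 23.5 and from 270.2 to 894.0 CPM. These correlations describe 12 libraries in which the step between WT and the knockouts is shared by all 5 genes, and GM36117 reached at most 4.36 CPM.

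The libraries outside the tests were read against the range of the 4 WT libraries. CCR2KO sample 6 lay within that range for HIF1A (221 CPM), SLC2A1 (112), HK1 (82.1), HK2 (50.4), PKM (950.4) and SLC16A3 (30.6). It lay above it for HK3 (111), LDHA (788.0) and ACOD1 (16.5, from 334 reads) and below it for PFKFB3 (56.4). With 1 library no test was possible. WT sample 11 lay within the range for 8 genes and above it for PFKFB3 (191 CPM) and SLC16A3 (42.5). That library had the fewest genes with reads (11670) and the highest sum of epithelial markers (2425 CPM), and their part in its values was not tested.

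Several of the 10 genes share ground with other annotated genes (GENCODE vM21). HK1, HK2, HIF1A, PFKFB3 and SLC2A1 are crossed by antisense genes and HK3 by UNC5A on the opposite strand, and the strand setting of the counting is not given in the sources used here. HIF1A also overlaps a second coding gene on its own strand. No other annotated gene overlaps LDHA, SLC16A3 or ACOD1.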

How the data were processed

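Sorted lamina propria macrophages were profiled by RNA-seq, with each library named by a genotype and a sample number in the labels. According to the labels and methods, cDNA was amplified with SMART-Seq v4, reads were demultiplexed with bcl2fastq 2.20 and aligned with STAR 2.5.1b to mm10, and the authors used edgeR 3.34.0. The methods name STAR for the gene counts as well. The strand setting of the counting and its treatment of reads with several alignments are not given in the sources used here. The authors deposited raw counts per gene, with gene names in capitals, for 14 libraries, and these counts were used here. They also deposited a table of edgeR pseudocounts, which are counts adjusted to a common library size and are recorded here as a score, and column names alone were taken from it. Libraries in both tables, 12 in all, entered the tests.

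The 10 genes were taken by name, and they and the gene lists were chosen with earlier results of these data known. Counts were filtered with filterByExpr (minimum count 10), scaled by TMM and tested with edgeR 4.0.16 in R 4.3.3 (quasi-likelihood F test, 12 libraries, 3 genotypes), with Benjamini-Hochberg adjustment over 13136 genes and a threshold of 0.05. The fit was tested on simulated counts. Alternatives used DESeq2 1.42.0, RLE scaling, library totals, other filters, WT sample 11 added (13 libraries), only the genotypes compared, the edgeR exact test, the bias-adjusted deviance, a robust dispersion and each library left out in turn. Ratios used log2 CPM with a pseudocount of 0.5 counts, and 1 ratio partner is not reported here. Named genes were the 10 genes, their ratio partners, IL10RA and CCR2, up to 3 genes per list and direction with the smallest adjusted p, and the 5 genes most alike to ACOD1 (prior count 2). Depth was 12153000 to 21216468 reads per library, where 3 reads correspond to 0.141 to 0.247 CPM. No library pair agreed within sampling noise. Each fold change rests on the spread between libraries, and intervals from 4 libraries are wide for genes of variable level. Gene positions came from GENCODE vM21 and promoter windows from RefSeq, both on GRCm38.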

Additional observations from a re-analysis of the deposited data

Results flagged for a closer look

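Dixon's criterion for a library apart from its group was applied to 30 groups of 4 libraries, of which chance marks about 5%. It was met by 3. HK1 in IL10RAKO was lowest in sample 7, at 112.6 CPM against 135.5 to 138.2 in the other libraries. PFKFB3 in WT was lowest in sample 4, at 88.85 CPM against 122.0 to 125.8. ACOD1 in DKO was highest in sample 9, at 981.8 CPM against 478.6 to 518.2.

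The CCR2KO library, which no comparison used, exceeded all 4 WT libraries for 3 of the 10 genes. HK3 was at 111.3 CPM (WT up to 94.82), LDHA at 788.0 CPM (WT up to 628.3) and ACOD1 at 16.49 CPM (WT up to 8.491), the last 3.61 times the WT mean. A single library has no replicate check. Marker sums of other cells also lay above the WT maximum there, with monocyte genes at 393 CPM (WT up to 193.5), B and plasma cell genes at 2368 CPM (WT up to 1542), fibroblast genes at 681.1 CPM (WT up to 577.1) and T and NK cell genes at 36.9 CPM (WT up to 33.5). The part of these cells in the values was not tested.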

How the results depend on the processing

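HIF1A, SLC2A1, HK2, HK3, PKM, LDHA, SLC16A3 and ACOD1 were higher than in WT in both genotypes under all alternatives run, all of them planned. HK1 in DKO lost its call with library totals, with 13 libraries and with only 2 genotypes in the fit (0.51 to 0.77, adjusted p of 0.0599 to 0.102), and HK1 in IL10RAKO passed with DESeq2 and the exact test (0.63, adjusted p of 0.0472 to 0.0477). Against WT in IL10RAKO the log2 fold change of PFKFB3 became -0.03 and that of SLC16A1 -0.29 with library totals, and SLC16A1 was at -0.02 with 10 counts in every library and -0.16 with 13 libraries. SLC2A1 in DKO against IL10RAKO became 0.01 with library totals. Over all genes, DESeq2 called 1404 lower in IL10RAKO, and library totals called 651 higher and 2084 lower there and 748 and 2140 in DKO. For DKO against IL10RAKO, where 2 were higher and 4 lower, DESeq2 called 21 lower, the exact test 5 higher and 17 lower, and the 13-library fit and the bias-adjusted deviance 1 higher each. With 13 libraries, of the ratios given, the differences of SLC16A3 to SLC16A1 at 3.61 and 3.68 and of PFKFB3 to PFKFB4 at 1.07 in DKO passed (adjusted exact permutation p = 0.0333), and LDHA to LDHB in DKO turned to 0.01. More WT libraries lower the smallest p possible. The other causes were not tested.

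Leaving out 1 library at a time gave 592 to 1260 genes lower in IL10RAKO, and 1 to 3 higher and 3 to 7 lower in DKO against IL10RAKO. Signs changed for values that had not passed. In IL10RAKO against WT these were SLC16A1 (-0.12 to 0.31), SLC2A3 (-0.77 to 0.19) and PFKFB4 (-0.14 to 0.04). In DKO against IL10RAKO they were HIF1A (-0.07 to 0.13), SLC2A1 (-0.23 to 0.15), HK2 (-0.21 to 0.13), LDHA (-0.11 to 0.19), ACOD1 (-0.53 to 0.02), LDHB (-0.23 to 0.06), and the ratios SLC16A3 to SLC16A1 (-0.12 to 0.17) and SLC2A1 to SLC2A3 (-0.03 to 0.62). No paired analysis was possible because the labels do not give the litter of a library. Depth does not limit the 10 genes except ACOD1 in WT (26 to 205 reads).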
